A study of Mus musculus with 3 samples.

Results

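The genes that encode subunits of NMDA receptors (Grin1, Grin2a, Grin2b, Grin2c, Grin2d, Grin3a and Grin3b) and a delta receptor subunit (Grid1) were followed in neuronal nuclei from dissections of the lateral habenula (LHb), which lies above the thalamus and is known for its part in aversion. They were chosen by name, 8 of the 32285 genes in the count table, and were read in the 592 of 603 nuclei that the authors annotated as neurons. Of these nuclei 588 carry the authors' LHb label and 4, all in cluster 1, that of the medial habenula. Sorting was by KASH-GFP, a fluorescent tag anchored to the nuclear envelope, and the labels tie the tagged nuclei to a BNST and LHb circuit, BNST being the bed nucleus of the stria terminalis. The groups were mothers (sexually experienced females), virgin males and virgin females, each a pool of 3 mice sequenced as 1 library. All groups share the sorting for the fluorescent tag. No label gives strain, age or the way the tag reached the neurons. With 1 library per group there is no replicate, so no difference between groups or clusters below has a test. Every interval in brackets is a 95% interval of counting error alone.

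NMDA receptors are cation channels opened by glutamate together with a co-agonist, glycine or D-serine. Every NMDA receptor needs the Grin1 subunit, which binds the co-agonist, and takes its further subunits from the Grin2 genes, which bind glutamate and set how fast the channel closes and how strongly magnesium blocks it, or from the Grin3 genes, which lower calcium entry. Delta receptors are built like glutamate receptors but work mainly as adhesion proteins, tied through secreted cerebellins to neurexins on the facing terminal. In rodents, NMDA receptors of the LHb are known for driving burst firing.

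The libraries held 2693450 UMIs (unique molecular identifiers, each a captured transcript) in 202 nuclei of mothers, 2126642 in 205 of virgin males and 2790062 in 196 of virgin females. Neuronal nuclei numbered 201, 204 and 187 in that order, with medians of 11898, 9414 and 13181 UMIs and median mitochondrial shares of 0.0436%, 0.0739% and 0.0470%. The authors placed them in 5 clusters, numbered 0 to 4, of 172, 157, 97, 91 and 75 nuclei. Summed over libraries, 6 markers of thalamic neurons stood at 7089, 2053, 8266, 10641 and 1454 CPM (UMIs scaled to a sum of 1000000) in clusters 0 to 4, with all 6 seen in each cluster. The LHb markers stood at 899, 1893, 1116, 1173 and 1760 CPM. Of those 6, Pou4f1, a transcription factor of habenular neurons, had no UMI in clusters 0, 2 and 3, and Gpr151, a habenular orphan receptor, none in cluster 3, so the LHb label of these nuclei rests on the authors' annotation. Markers of GABAergic neurons were at 0 in clusters 2 and 3, and stood at 5.08 CPM in cluster 0, 57.0 in cluster 1 and 59.2 in cluster 4. All 3 were seen in cluster 1, while Gad1 and Slc32a1 had no UMI in cluster 4. Ependymal or choroid markers reached 1577 CPM in the virgin males' nuclei of cluster 1, and 10 neuronal nuclei held more UMIs of non-neuronal than of neuronal markers. Leaving those nuclei out changed no count of receptor genes given below.

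Over all neuronal nuclei, 7 of the 8 genes passed a minimum of 50 UMIs. Grin1 (mouse GRCm38, chromosome 2, 25291181 to 25319187, minus strand) had 2158 UMIs in 528 nuclei. Grin2a (chromosome 16, 9567898 to 9995560, minus strand) had 6895 UMIs in 534 nuclei, and Grin2b (chromosome 6, 135713233 to 136173511, minus strand) had 8925 UMIs in 536. Grin2c (chromosome 11, 115249169 to 115267243, minus strand) had 258 UMIs in 131 nuclei, and Grin2d (chromosome 7, 45831883 to 45878378, minus strand) had 391 in 241. Grin3a (chromosome 4, 49661611 to 49845744, minus strand) had 1558 UMIs in 410 nuclei, and Grid1 (chromosome 14, 34820108 to 35583379, plus strand) had 5030 in 553. Grin3b (chromosome 10, 79970715 to 79977190, plus strand) had 7 UMIs in 7 nuclei. The genes span 6476 bases (Grin3b) to 763272 bases (Grid1), and whether intronic reads were counted is not given, so a gene's level is compared here across clusters and libraries and never with another gene's level. The strand used in counting is not given either. Reads of Grin1 can therefore not be told apart from those of Grin1os, an antisense RNA within it with 120 UMIs, nor those of Grin2b from the overlapping Gm14329 and Gm14330, with 93 and 183 UMIs. Kdelr1 (168 UMIs) overlaps Grin2d on the opposite strand, and Tmem259, with 253 UMIs, overlaps Grin3b in the same way.

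The 250 bases before the start site are shown for Grin2c, the most unevenly spread over clusters of the 7 genes above the minimum, and for Grin1, the subunit shared by all NMDA receptors. Windows were matched for 4 of the 8 genes, these and Grin2d and Grin3b. They are RefSeq sequences on GRCm38.p6, printed on the gene's own strand (minus for both), 5′ to 3′, with GC boxes (GGGCGG, searched on both strands) in capitals. The Grin2c sequence is chr11:115267244-115267493 and that of Grin1 is chr2:25319188-25319437.
Grin2c: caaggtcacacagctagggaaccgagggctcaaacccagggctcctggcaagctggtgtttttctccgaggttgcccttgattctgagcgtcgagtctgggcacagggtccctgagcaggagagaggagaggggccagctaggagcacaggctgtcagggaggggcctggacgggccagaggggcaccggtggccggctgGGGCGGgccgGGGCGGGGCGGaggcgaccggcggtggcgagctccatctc
Grin1: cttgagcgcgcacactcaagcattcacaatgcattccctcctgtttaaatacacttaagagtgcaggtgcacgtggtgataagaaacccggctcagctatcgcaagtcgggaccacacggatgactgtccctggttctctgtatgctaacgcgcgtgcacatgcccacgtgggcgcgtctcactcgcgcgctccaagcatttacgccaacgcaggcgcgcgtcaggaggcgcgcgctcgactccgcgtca
The Grin2c window held 3 GC boxes, the nearest beginning 35 bases before the start and overlapping its neighbour by a base, and the Grin1 window none, while 32.7% of 32851 mouse promoters of this length hold at least 1. The windows were 68.8% G and C with 15 CpG dinucleotides in Grin2c, and 58.8% with 27 in Grin1, against medians of 52.4% and 6 over all promoters. E-boxes (CANNTG) numbered 0 in Grin2c and 4 in Grin1, and 66.2% of promoters hold at least 1. The match of letters is a description of these windows and says nothing on which factor acts there.

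For the 6 members with more than 1 UMI in every cluster, the highest cluster mean was 1.73 (Grid1) to 10.6 (Grin2b) times the lowest, while over all neuronal nuclei no library differed from another by 1.5-fold. Because the authors made the clusters from these same counts, a cluster set against the rest is a description and no test. Grin1, the subunit that every NMDA receptor carries, was the most even of the NMDA receptor genes with enough UMIs. In cluster 3 it stood at 451 CPM in mothers, 395 in virgin males and 354 in virgin females, a mean of 400 ± 48.7 CPM (SD over the 3 libraries, which are also the 3 groups). Cluster 2 averaged 285 ± 47.8 CPM, cluster 1 255 ± 32.6, cluster 0 252 ± 8.21 and cluster 4 221 ± 14.7. The highest cluster was 1.81 times the lowest, every library of cluster 3 lay above every library of the next cluster, and the library ranges of clusters 2, 1 and 0 overlapped in turn.

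Grin2a and Grin2b, the Grin2 genes of most forebrain synapses, were highest in clusters 2 and 3 and lowest in cluster 4. Grin2a stood at 1417 CPM in mothers, 1414 in virgin males and 1294 in virgin females in cluster 2, and at 1462, 1184 and 1332 CPM in cluster 3. It averaged 790 ± 112 CPM in cluster 0 and 603 ± 61.7 in cluster 1. In cluster 4 it stood at 426 CPM in mothers, 358 in virgin males and 209 in virgin females. The ranges of clusters 2 and 3 overlapped, and every other neighbouring pair of clusters in this order was separate, with the mean of cluster 2 4.15 times that of cluster 4.

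Grin2b, with a wider span, had cluster 3 before cluster 2 and then the order of Grin2a. It stood at 2086 CPM in mothers, 2324 in virgin males and 2218 in virgin females in cluster 3, and at 1998, 2245 and 1554 CPM in cluster 2. Clusters 0 and 1 averaged 858 ± 47.4 and 582 ± 51.8 CPM. Cluster 4 held 240 CPM in mothers, 116 in virgin males and 272 in virgin females, from 97, 21 and 52 UMIs. The mean of cluster 3 was 10.6 times that of cluster 4, and apart from clusters 3 and 2 no neighbours in the order overlapped. In cluster 4, 1 nucleus of the mothers' library gave 25.8% of that library's Grin2b UMIs, so these low values rest on few nuclei.

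Grin2c, whose product gives channels with weak magnesium block and which is known for its expression in thalamus and cerebellum, was concentrated in clusters 3 and 2. Cluster 3 held 115 CPM in mothers, 87.4 in virgin males and 127 in virgin females, and cluster 2 held 61.0, 53.3 and 48.0 CPM, so that the libraries of these clusters did not overlap. These clusters gave 61.2% and 29.1% of all Grin2c UMIs. Cluster 0 held 23 UMIs, at 10.5 CPM in mothers, 4.79 in virgin males and 14.9 in virgin females. Clusters 1 and 4 held 1 UMI each, or 0.570 CPM [0.0144, 3.18] in 157 nuclei and 1.29 CPM [0.0326, 7.18] in 75 nuclei. The summed thalamic markers were also highest in clusters 3 and 2 and lowest in clusters 1 and 4, and their part in the Grin2a, Grin2b and Grin2c patterns was not tested.

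Grin2d, which encodes the subunit with the slowest channel closing, split the clusters differently. Cluster 0 held 70.8 CPM in mothers, 63.8 in virgin males and 68.7 in virgin females. Cluster 2 held 64.2, 32.0 and 78.6 CPM, and cluster 3 held 44.9, 99.7 and 71.9 CPM, so libraries within each of these clusters spread widely. Cluster 1 averaged 22.6 CPM, from 39 UMIs, and cluster 4 averaged 16.6 CPM, from 13 UMIs. Clusters 3, 0 and 2 overlapped one another in turn, as did clusters 1 and 4. The lowest library of cluster 2 was virgin males, at 32.0 CPM [14.6, 60.7] from 9 UMIs. It lay above the highest of cluster 1, mothers at 29.3 CPM [15.6, 50.1] from 13 UMIs, but these intervals overlap.

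Grin3a, whose subunit joins Grin1 in receptors with little calcium entry, was highest in cluster 0. It stood there at 309 CPM in mothers, 393 in virgin males and 303 in virgin females, and each of these lay above every library of the other clusters. Clusters 2, 1 and 3 averaged 189, 168 and 165 CPM with overlapping libraries. Cluster 4 held 91.6 CPM in mothers, 77.1 in virgin males and 31.4 in virgin females, from 37, 14 and 6 UMIs. The mean of cluster 0 was 5.02 times that of cluster 4. Grin3b, the related gene known for motor neurons, gave 6 UMIs in cluster 1 and 1 in cluster 4. No Grin3b UMI was found in clusters 0, 2 and 3, where a floor of 3 UMIs allows up to 1.39, 2.20 and 2.03 CPM.

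Grid1 did not follow the NMDA receptor genes, being highest in cluster 1 and near even over the other clusters. In cluster 1 it stood at 782 CPM in mothers, 1070 in virgin males and 948 in virgin females, a mean of 933 ± 145 CPM, above every library of the next cluster. Clusters 4, 3, 2 and 0 averaged 630, 621, 561 and 540 CPM with overlapping neighbours. The LHb markers were also highest in cluster 1, and their part in the Grid1 level was not tested. Cluster 4, lowest for each other member that passed the minimum except Grin2c, thus held Grid1 at 683 CPM in mothers, 589 in virgin males and 618 in virgin females. Within cluster 1 Grid1 also varied most from nucleus to nucleus, with a variance 6.57 times that of counting error, against 1.80 to 3.42 times in the other clusters. Under the authors' second scheme of subtypes, cluster 1 held 71 nuclei labelled LHb4 with 1117 CPM of Grid1 and 86 labelled LHb2 with 825 CPM. In mothers, virgin males and virgin females the LHb4 nuclei held 842, 1051 and 1318 CPM, against 746, 1087 and 747 CPM in LHb2 nuclei, so virgin males did not share that order. Grin2d went the other way, at 5.89 CPM from 4 UMIs in LHb4 nuclei and 32.6 CPM from 35 UMIs in LHb2 nuclei of cluster 1. It was lower in LHb4 nuclei in all 3 libraries, but on these few UMIs.

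**Figure D1:**
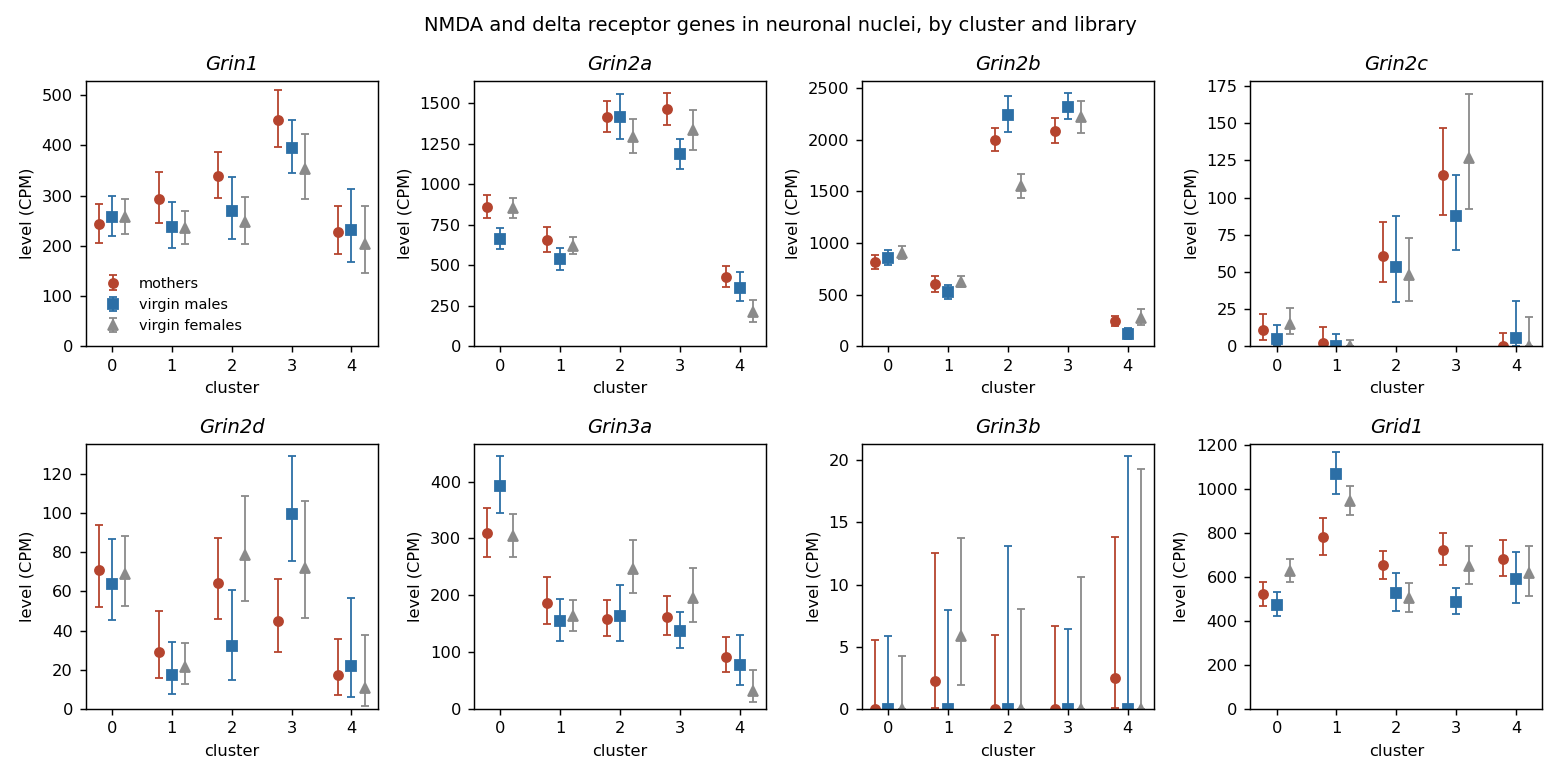
Level (CPM) of each receptor gene in neuronal nuclei of clusters 0 to 4, for mothers (circles), virgin males (squares) and virgin females (triangles), with exact Poisson 95% intervals as bars and an own scale per gene. Grin2a, Grin2b and Grin2c peak in clusters 2 and 3, Grin3a in cluster 0 and Grid1 in cluster 1, while Grin3b rests on 7 UMIs.

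A cluster was set against the other clusters within each library, with 0.5 UMI added to each sum, and a gene was counted where the mean ratio was at least 1.5-fold and went the same way in all 3 libraries. Of the 7 members tested, cluster 3 had 4 counted as higher, where 7.35% of all 11467 genes tested were, and none as lower, where 19% were. These were Grin2c at 6.84-fold, Grin2b at 2.36-fold, Grin2a at 1.64-fold and Grin1 at 1.55-fold. Grin2d reached 1.51-fold in cluster 3 but was lower there in mothers and is not counted. With nuclei thinned to an equal depth, Grin1 had a log2 ratio of 0.56, where it was 0.64, and fell just short of the 1.5-fold mark at 0.58.

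Cluster 2 had 3 members higher (5.08% of all genes) and none lower (12.1%), namely Grin2b at 1.85-fold, Grin2c at 1.85-fold and Grin2a at 1.70-fold. Cluster 4 had no member higher (14.5%) and 5 lower (11.7%). Grin2b stood at 0.153-fold, Grin3a at 0.285-fold, Grin2d at 0.323-fold and Grin2a at 0.329-fold there, and Grin2c had its 1 UMI. Cluster 1 had 1 member higher (16.5%), Grid1 at 1.61-fold, and 4 lower (11.5%), or 5 either way where 28% of all genes were. These were Grin2a at 0.602-fold, Grin2b at 0.426-fold, Grin2d at 0.374-fold, and Grin2c with its 1 UMI. Cluster 0 had 1 member higher (8.57%), Grin3a at 2.14-fold, and 2 lower (11.4%), Grin2b at 0.653-fold and Grin2c at 0.229-fold. Either way this was 3 members in cluster 0, where 20% of all genes were counted. Without the mothers' library Grin2b was no longer counted in cluster 0, nor without that of virgin males, and Grid1 was no longer counted in cluster 1 without virgin males or with median-of-ratios size factors. Median log2 ratios of the tested members were 0.64, 0.16, -0.28, -0.73 and -1.63 in clusters 3, 2, 0, 1 and 4. Over all genes tested they were -0.17, -0.08, -0.04, 0.12 and 0.08 in the same order.

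**Figure D2:**
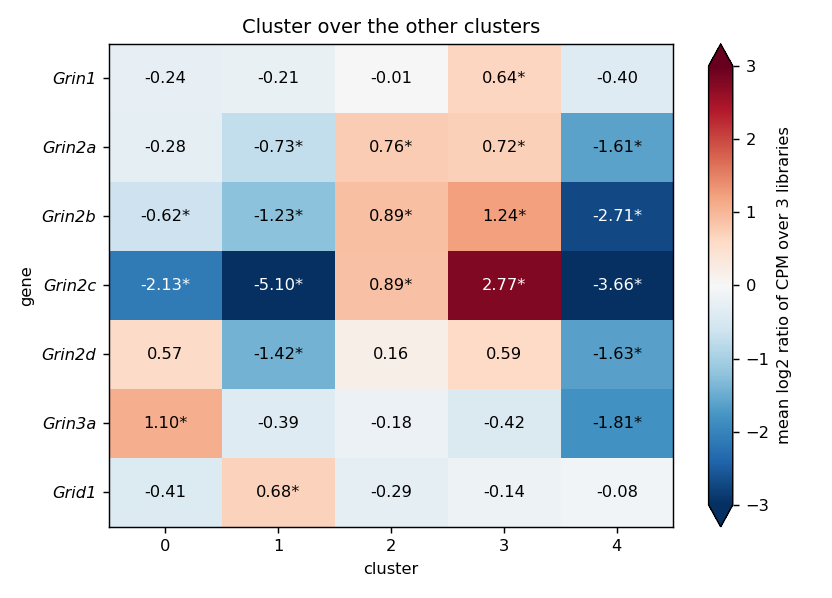
Mean log2 ratio of CPM, cluster over the other clusters within each library, for the 7 members above 50 UMIs, with 0.5 UMI added to each sum. Asterisks mark ratios of at least 1.5-fold with the same direction in all 3 libraries, which count 4 higher members in cluster 3 and 5 lower members in cluster 4; the Grin2c values of clusters 1 and 4 rest on 1 UMI each and on the added 0.5.

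Relative use of Grin2a and Grin2b was compared between clusters as the share of Grin2a in their summed UMIs, since gene length is then the same throughout. The mean share was highest in cluster 4, at 63.9% [57.9, 69.7] in mothers, 75.6% [65.1, 84.2] in virgin males and 43.5% [33.2, 54.2] in virgin females. It was lowest in cluster 3, at 41.2% [39.0, 43.4] in mothers, 33.7% [31.7, 35.9] in virgin males and 37.5% [34.8, 40.3] in virgin females. Means ran down as 61.0%, 50.9%, 47.8%, 41.9% and 37.5% over clusters 4, 1, 0, 2 and 3. Cluster 4 exceeded cluster 3 by 23.5 percentage points on average, and by 22.7, 41.8 and 5.96 points in mothers, virgin males and virgin females. The virgin females' share in cluster 4, from 92 UMIs, lay below the other libraries of that cluster. It also lay below the virgin females' own shares of 49.8% in cluster 1, 48.4% in cluster 0 and 45.4% in cluster 2, so cluster 4 was highest in mothers and virgin males only. Without virgin males the difference was 14.3 points, and without virgin females it was 32.3.

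**Figure D3:**
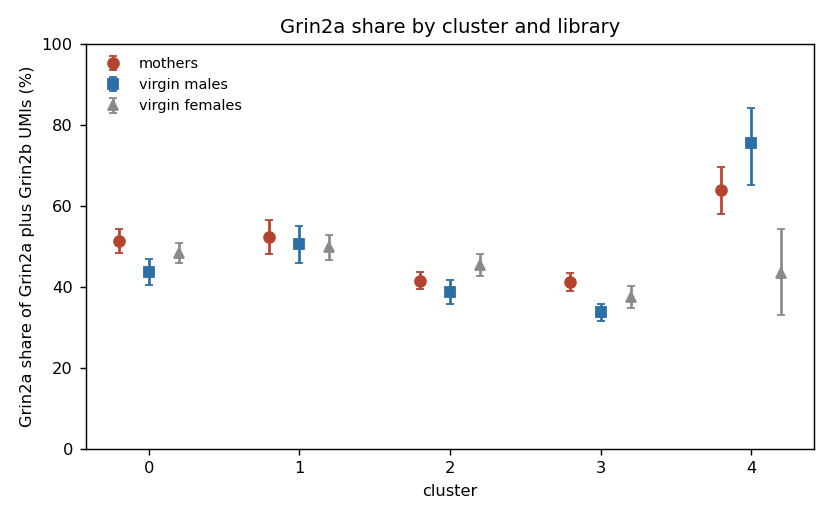
Grin2a UMIs as a share of Grin2a plus Grin2b UMIs (%) in clusters 0 to 4 for mothers, virgin males and virgin females, with exact Clopper-Pearson 95% intervals. Cluster 3 lies at 33.7% to 41.2%, and cluster 4 spans 43.5% to 75.6%.

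Other ratios within the family followed the levels. Grin2c made up 2.95% of the UMIs of the Grin2 genes in cluster 3, 1.59% in cluster 2 and 0.571% in cluster 0, as means over libraries. Grin3a made up 56.9% ± 3.21 of Grin3a plus Grin1 UMIs in cluster 0 and 22.3% ± 8.01 in cluster 4 (SD, n = 3 libraries). The range in cluster 0 was 54.2% to 60.4%, above every library of the other clusters.

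Nuclei with UMIs of both main Grin2 genes were counted at an equal depth. Each nucleus was thinned to 4000 UMIs, which kept 559 nuclei and left out 10 of mothers, 15 of virgin males and 8 of virgin females. Both Grin2a and Grin2b were found in 98.9% [94.2, 100] of the nuclei of cluster 2 and in 96.7% [90.6, 99.3] of those of cluster 3. Cluster 0 followed with 81.8% [75.1, 87.4] and cluster 1 with 64.2% [55.6, 72.2]. In cluster 4 it was 28.8% [18.8, 40.6], while 31.5% gave UMIs of Grin2a only, 9.59% of Grin2b only and 30.1% of neither. Taken alone, Grin2a was found in 89.1%, 78.8% and 60.3% of thinned nuclei of clusters 0, 1 and 4. For Grin2b it was 91.5%, 81.8% and 38.4%. A nucleus without a UMI at this depth can still hold the transcript. Whether the genes occur together beyond what their own shares give was not tested. Grin2b was found in 38.4% of thinned nuclei of cluster 4 and in 57.3% before thinning. Grid1 by contrast was found in 91.8% of thinned nuclei of cluster 4, so the low Grin2 shares there are not shared by all members. Grin2c was found in 38.9% of thinned nuclei in cluster 3 and 16.0% in cluster 2, and in 78.0% and 43.3% before thinning, at median depths of 15007 and 12639 UMIs.

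**Figure D4:**
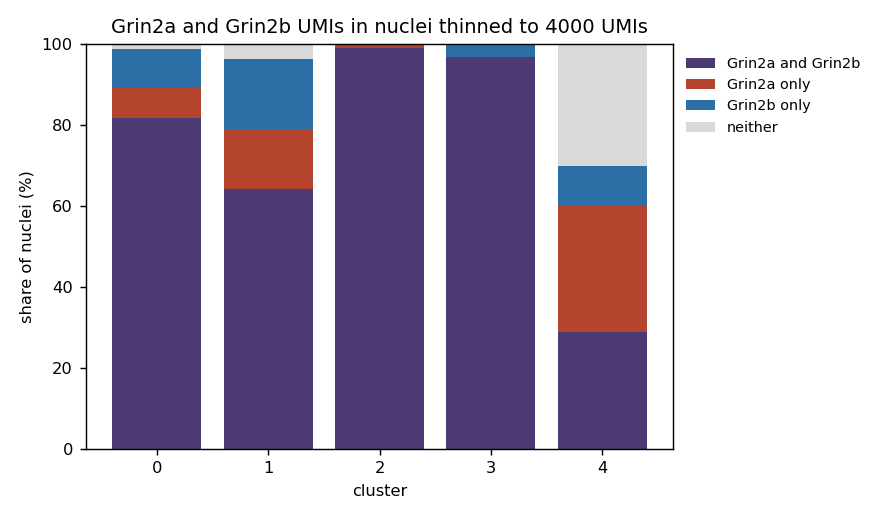
Share of nuclei (%) with UMIs of Grin2a and Grin2b, of 1 of them or of neither, in clusters 0 to 4 after thinning each nucleus to 4000 UMIs. Both genes are found in 98.9% of nuclei in cluster 2 and in 28.8% in cluster 4.

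Shares in non-neuronal nuclei were set beside those in neuronal nuclei. Whether their UMIs came from loose RNA or from their own transcripts was not tested. The 11 nuclei of astrocytes, ependymal cells, oligodendrocytes and 1 polydendrocyte stood beside neuronal nuclei, whose median was 11380 UMIs against 4780 in the non-neuronal ones. The 3 astrocytes and 5 ependymal cells among the non-neuronal nuclei all came from virgin females. Grin2a UMIs were found in 90.2% of neuronal nuclei, against 36.4% (4 of 11) of non-neuronal ones. For Grin2b, Grin3a and Grid1 the neuronal shares were 90.5%, 69.3% and 93.4%, against 27.3% (3 of 11) for each in non-neuronal nuclei, and for Grin2c it was 22.1%, against 9.09% (1 of 11). Grin1, found in 89.2% of neuronal nuclei, and Grin2d, found in 40.7%, had no UMI in non-neuronal nuclei, and a count of 0 in 11 nuclei allows a share of up to 27.3%. Shares in cluster 4 before thinning were 72.0% for Grin2a, 57.3% for Grin2b and 26.7% for Grin3a. The last was below the non-neuronal share at a higher median depth of 9431 UMIs. By its share of nuclei, Grin3a in cluster 4 is thus not told apart from non-neuronal nuclei. The shares of Grin2a and Grin2b there stand beside the same 11 nuclei and were not tested against them.

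Libraries were set against one another to compare mothers with virgin animals and males with females. None of the 7 tested members differed by 1.5-fold in any of the 3 comparisons. Of all genes with at least 50 UMIs in the libraries compared, 7.22% differed by that much in mothers over virgin females (3.75% higher, 3.47% lower) and 7.32% in virgin males over virgin females (2.96% higher, 4.36% lower). In mothers over virgin males it was 7.01%, with 4.06% higher and 2.94% lower. Median log2 ratios of the members were 0.22, 0.10 and 0.08 in these comparisons, beside -0.01, -0.02 and 0.01 over all genes tested. These comparisons share libraries and are not independent.

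Grin2a was higher in mothers, at 1014 CPM against 870 in virgin females, a ratio of 1.17 [1.10, 1.23], and against 848 CPM in virgin males, a ratio of 1.20 [1.13, 1.27]. Both ratios were above 1 in each of the 5 clusters. Against virgin females the ratio ran between 1.01 and 1.10 in clusters 0 to 3 and stood at 2.03 [1.43, 2.94] in cluster 4, from 172 UMIs in mothers and 40 in virgin females. Virgin males also exceeded virgin females in cluster 4, at 358 against 209 CPM or 1.71-fold [1.14, 2.60], while over all nuclei their ratio was 0.975 [0.917, 1.04]. Grin1 stood at 314 CPM in mothers, 290 in virgin males and 257 in virgin females. Its ratio was 1.22 [1.10, 1.35] for mothers over virgin females, above 1 in 4 of 5 clusters, and 1.13 [1.01, 1.26] for virgin males over virgin females, above 1 in all 5 but by no more than 1.13 in any.

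Grin2b stood at 1229 CPM in mothers, 1300 in virgin males and 1051 in virgin females. Its ratio was 1.17 [1.11, 1.23] for mothers over virgin females and 1.24 [1.17, 1.30] for virgin males over virgin females. These ratios did not hold within clusters. Mothers exceeded virgin females in cluster 2 alone, at 1.29-fold [1.17, 1.41], and the other 4 ratios ran between 0.882 and 0.961. Cluster 3, where Grin2b was highest, held 35 nuclei of mothers, 39 of virgin males and 17 of virgin females. Log2 ratios within clusters were also averaged, each cluster weighted by its nuclei. This average was -0.04 for mothers over virgin females, where the ratio was 0.23 over all nuclei. For virgin males over virgin females it was -0.15, where the ratio was 0.31, and for mothers over virgin males 0.11, where it was -0.08. Cluster 4 held 1.90% of Grin2b UMIs but entered at -1.21 for virgin males over virgin females, beside 0.53 in cluster 2. Clusters with few UMIs count by their nuclei in this average, so it is not the CPM ratio at an equal mix of clusters. Virgin males over virgin females ranged from 0.425 [0.243, 0.718] in cluster 4, with 21 UMIs in virgin males and 52 in virgin females, to 1.44 [1.30, 1.61] in cluster 2.

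Grin2c stood at 40.9 CPM in mothers, 32.5 in virgin males and 29.1 in virgin females, from 110, 69 and 79 UMIs. The ratio of mothers over virgin females was 1.41 [1.04, 1.90], but within cluster 3 it was 0.908 [0.609, 1.36] and within cluster 2 it was 1.27 [0.732, 2.25]. Its log2 ratio of 0.49 passed the 1.5-fold mark, at 0.73, without the 5% of nuclei with most UMIs and, at 0.84, as a mean over nuclei. Grin2d stood at 49.0, 55.6 and 51.9 CPM in mothers, virgin males and virgin females, and the 3 intervals of its ratios all held 1. In the average over clusters its log2 ratio also turned sign in each comparison, to 0.05 for mothers over virgin females, where it was -0.08 over all nuclei. In cluster 3 it was lower in mothers than in virgin males, at 44.9 against 99.7 CPM or 0.450-fold [0.270, 0.733].

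Grin3a stood at 191 CPM in mothers, 214 in virgin males and 217 in virgin females, and the ratio of mothers over virgin females was 0.878 [0.779, 0.990]. Within clusters it ran from 0.638 [0.482, 0.843] in cluster 2 to 2.91 [1.22, 8.45] in cluster 4. The average of the log2 ratios over clusters was 0.10, where the log2 ratio was -0.19 over all nuclei. Cluster 4 entered that average at 1.45, from 37 UMIs in mothers and 6 in virgin females, and cluster 2 at -0.65. The Grin3a averages for virgin males over virgin females and mothers over virgin males also turned, to 0.07 and 0.03, where the ratios were -0.02 and -0.17. Grid1 stood at 661 CPM in mothers, 624 in virgin males and 709 in virgin females, with ratios of 0.932 [0.874, 0.995] for mothers over virgin females and 0.880 [0.820, 0.944] for virgin males over virgin females. Mothers over virgin males was 0.730 [0.635, 0.840] in cluster 1 and 1.48 [1.27, 1.73] in cluster 3. Grin3b gave 2 UMIs in mothers, 0 in virgin males and 5 in virgin females, too few for a ratio. Intervals that treat UMIs as independent are too narrow here, since counts of Grin2a, Grin2b and Grid1 varied between nuclei of a cluster 1.80 to 6.57 times as much as counting error alone.

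**Figure D5:**
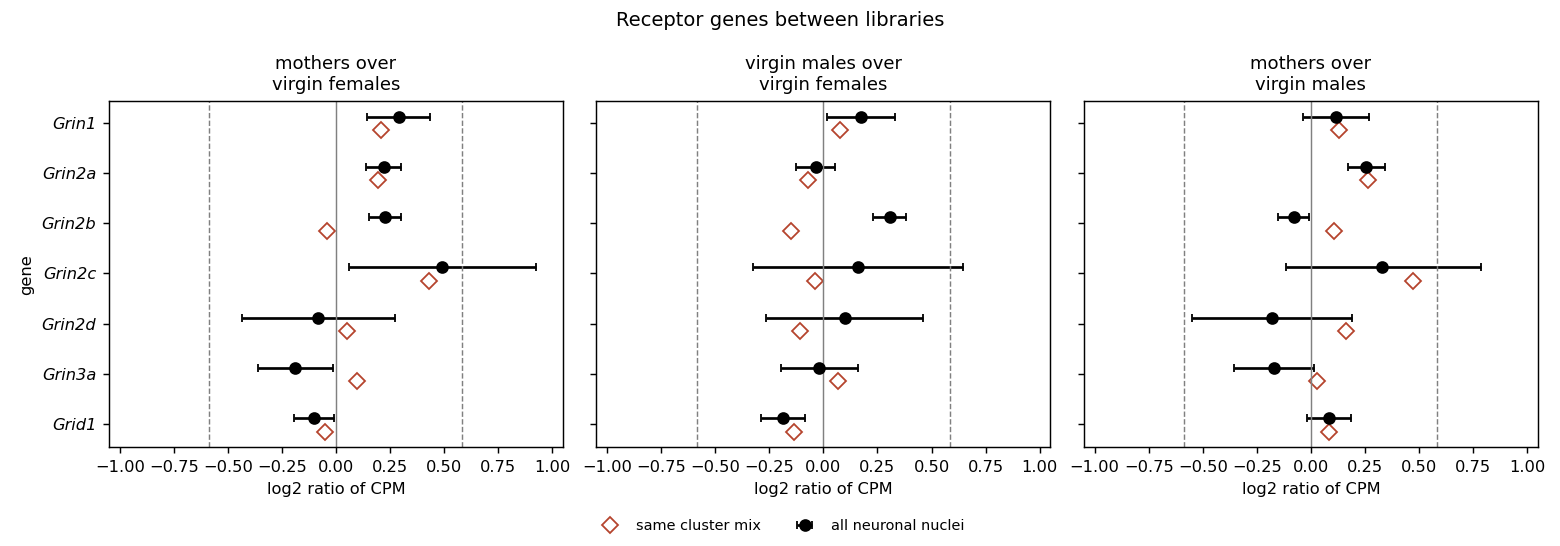
Log2 ratio of CPM between libraries for the 7 members above 50 UMIs, over all neuronal nuclei with exact 95% counting intervals (filled circles). Open diamonds mark the average of log2 ratios within clusters, weighted by nuclei, and dashed lines mark 1.5-fold. No filled circle passes a dashed line. The Grin2b ratios change sign in that average, as for mothers over virgin females with 0.23 and -0.04.

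Across the 15 sums of 5 clusters and 3 libraries, the profiles of the NMDA receptor genes were alike to varying degrees. Pearson's r of log2(CPM + 1) between Grin2a and Grin2b was 0.92, between Grin2a and Grin2c 0.86, and between Grin1 and Grin2c 0.78. Grin3a was less alike, with r of 0.24 with Grin1, 0.37 with Grin2c, 0.53 with Grin2b, 0.64 with Grin2a and 0.73 with Grin2d. Grid1 had negative r with each of the 6 other tested members, from -0.56 with Grin2d to -0.08 with Grin1. Sums of the same library share its preparation and depth, so r is a description only. Among 6248 genes with at least 200 UMIs, the profile most like that of Grin2b was Kcnc2, a voltage-gated potassium channel (r = 0.98), then Anks1b, a postsynaptic protein (0.98), and Cacna2d3, a calcium channel subunit (0.97). Grin2a was closest to Osbpl3, a lipid-binding protein (0.98), B3glct, a glycosyltransferase (0.96), and Lef1, a transcription factor of the thalamic marker list (0.96). Grin2c was closest to Gabbr2, a GABA-B receptor subunit (0.97), Sorbs2 (0.97) and Vav3, an exchange factor for small GTPases (0.96). Grin1 was closest to Mb21d2, Arhgap32 and D630045J12Rik (0.86 to 0.90), and Grin2d to Mir124-2hg, 4921524J17Rik and Rhou (0.93 to 0.97). Grin3a was closest to Nxph1, a neurexin ligand (0.93), Lmo7 (0.92) and Gm26871 (0.92). Grid1 was closest to Ppip5k2, Camta1 and Sod2, a mitochondrial superoxide dismutase (0.88 to 0.89).

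Scaffold and signalling partners of NMDA receptors were counted by the same rule, 26 of the 29 listed passing the minimum. Cluster 3, with the highest Grin2b, had 9 of them higher (7.35% of all genes) and 5 lower (19%), with a median log2 ratio of 0.31 beside -0.17 over all genes. The largest were Ptk2b, a calcium-activated tyrosine kinase (127 CPM, 4.42-fold), and Camk2a, a kinase that binds the Grin2b subunit (540 CPM, 2.43-fold). The smallest were Dlgap2, a postsynaptic scaffold protein (3.56 against 146 CPM), and Rasgrf2, a Ras exchange factor (0.178-fold). Cluster 2 had 5 higher (5.08%) and 4 lower (12.1%), led by Camk2a at 1.84-fold and Ptk2b at 1.83-fold, with Dlgap2, at 20.7 against 137 CPM, at 0.123-fold and Rasgrf2 at 0.340-fold. Cluster 1 had 5 higher (16.5%), a share near that of all genes, and 11 lower (11.5%), with a median of -0.46, where Camk2g reached 2.93-fold and Rapgef4 2.24-fold, Camk2a 0.279-fold, and Ptk2b 2.97 against 62.7 CPM. Cluster 4 had 2 higher (14.5%), Dlgap2 at 2.10-fold and Dlg1 at 1.52-fold, and 8 lower (11.7%), with Dlgap4 at 0.358-fold and no UMI of Ptk2b, against 54.3 CPM in the other clusters. Cluster 0 had 2 higher (8.57%), Dlgap2 at 2.20-fold and Rasgrf2 at 1.69-fold, and 2 lower (11.4%), Homer2 at 0.472-fold and Camk2g at 0.518-fold.

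Partners of delta receptors showed a divided set of cerebellins, the secreted proteins that link delta receptors to neurexins. Cbln2 was highest in cluster 1, where Grid1 was highest too, at 154 CPM against 8.93 in the other clusters or 16.8-fold. Cbln1 was highest in cluster 4, at 114 against 8.27 CPM or 13.6-fold, where Cbln4 reached 2.49-fold. Cluster 3 had no UMI of Cbln2 or Cbln4, and there Nrxn3, a neurexin, reached 2.50-fold and Grid2ip, a protein that binds delta receptors, 2.34-fold. Cluster 2 had Grid2ip at 2.07-fold, with Cbln2 at 6.11 against 51.1 CPM and Cbln1 at 2.67 against 22.8 CPM. Cluster 0 had Cbln4 at 2.74-fold, Gopc at 1.52-fold, Cbln2 at 4.89 against 59.6 CPM and Cbln1 at 5.25 against 24.6 CPM. Grid2ip was low in cluster 4, at 0.171-fold, and in cluster 1, at 4.22 against 82.4 CPM, and Gopc was at 0.559-fold in cluster 4. Of 9 partners tested, 1 was higher and 1 lower in cluster 1, where 28% of all genes were counted either way. In cluster 3 it was 2 higher (7.35%) and 3 lower (19%), and in cluster 0 2 higher (8.57%) and 3 lower (11.4%).

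The AMPA and kainate subunits, all 9 tested, carry the fast glutamate current beside NMDA receptors. In cluster 4, where Grin2a, Grin2b and Grin2d were lowest, 3 were higher (14.5% of all genes) and 3 lower (11.7%). Grik4, a kainate subunit, stood at 434 against 140 CPM and Gria1, an AMPA subunit, at 1640 against 547 CPM (2.99-fold), while Grik3 was at 0.212-fold and Grik2 at 0.599-fold. Cluster 3 had none higher (7.35%) and 3 lower (19%), Grik4 at 0.327-fold, Gria1 at 0.399-fold and Grik1 at 0.658-fold. Cluster 2 likewise had none higher (5.08%) and 3 lower (12.1%), Grik3 at 0.369-fold, Gria1 at 0.622-fold and Grik1 at 0.626-fold. Cluster 1 had 3 higher (16.5%), Grik3 at 186 against 93.1 CPM, Gria1 at 1.80-fold and Gria3 at 1.59-fold. It had 1 lower (11.5%), Grik2 at 0.579-fold, a share near that of all genes. Cluster 0 had 2 higher (8.57%), Grik1 at 1.83-fold and Grik2 at 1.66-fold, and 2 lower (11.4%), Gria3 at 0.359-fold and Gria1 at 0.568-fold.

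Of the trafficking partners, 14 of 15 were tested and at most 3 passed in any cluster, where 17.2% to 28% of all genes did. The 3 were in cluster 1, where the share of all genes was 28%. Reln, a secreted glycoprotein, was at 6.39-fold, Lin7a at 1.74-fold and Ptprd at 0.569-fold in cluster 1. Reln was at 3.50 against 9.61 CPM in cluster 0, and at 1.26 against 9.26 CPM in cluster 2, beside Lin7a at 0.552-fold. Kif17, a kinesin that carries the Grin2b subunit, was at 1.85-fold in cluster 3, with Ephb2 at 0.595-fold, and none passed in cluster 4. Of the genes for making and moving the co-agonists, only 4 of 13 passed the minimum of UMIs. Slc1a4, a serine transporter, was at 1.56-fold in cluster 4 (14.5% of all genes higher) and 0.637-fold in cluster 3 (19% lower). Psph, which makes serine, had only 69 UMIs. It stood at 12.9 against 7.41 CPM in cluster 1 (1.92-fold, 16.5% of all genes higher). In cluster 2 it stood at 5.39 against 9.67 CPM (0.537-fold, 12.1% lower), with its lowest library at 0 CPM.

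Between libraries, most partners past 1.5-fold were of the delta receptor list. For mothers over virgin females, 2 of its 9 tested were higher (3.75% of all genes), Cbln1 (26.0 against 15.8 CPM, 1.64-fold) and Nrxn3 (2007 against 1309 CPM, 1.53-fold). There 2 were lower (3.47%), Cbln2 (32.0 against 61.8 CPM, 0.517-fold) and Cbln4 (11.5 against 18.8 CPM, 0.614-fold). For virgin males over virgin females 2 of the 9 were lower (4.36%), Cbln4 at 0.477-fold and Cbln2 at 0.587-fold. Slc6a9, a glycine transporter and 1 of 3 co-agonist genes tested there, was at 0.610-fold. For mothers over virgin males (4.06% of all genes higher), Cbln1 was at 1.67-fold. Ptpn5, a phosphatase of NMDA receptors and 1 of 26 scaffold and signalling partners tested, was at 1.54-fold. Cluster 1, highest in Cbln2, held 39 nuclei of mothers, 53 of virgin males and 65 of virgin females, and cluster 4, highest in Cbln1, held 34, 23 and 18. The part of that mix in these ratios was not tested. No AMPA, kainate or trafficking gene passed in any of the 3 comparisons, where 7.01% to 7.32% of all genes did.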

How the data were processed

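Neuronal nuclei of 3 libraries, 1 per group, were analysed. The authors deposited a table of UMI counts per gene and nucleus, not normalised, and a metadata table with the group, annotation, cluster and the percent of mitochondrial UMIs of each nucleus. Cell Ranger 5.0.1 and GRCm38 (mm10) are named per the submitters' processing notes. Intron counting, strand, filters on nuclei and handling of doublets were not given in the sources used here. No doublet caller was run. The tables were joined by total UMIs and genes per nucleus, which was unique for all 603 nuclei, and the deposited percent was recovered with a largest difference of 0. Libraries shared 0 barcodes.

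Counts were summed and scaled to CPM (Python 3.11.15, numpy 2.4.6, pandas 2.3.3, scipy 1.17.1), with exact Poisson intervals, exact conditional binomial intervals for ratios and Clopper-Pearson intervals for shares, all for counting error only. Ratios have 0.5 UMI added to each sum where a gene is counted against 1.5-fold. The scripts were tested on simulated data. Each list gene past 1.5-fold was named, or the 2 largest and 2 smallest where over 4 passed, with the 3 most alike genes per member. The receptor genes, lists and comparisons were chosen with earlier results of these data known. Alternatives were other scalings, minimums of 10 and 1 UMIs, thinning, means over nuclei, and leaving out deep nuclei, rich nuclei, mixed nuclei or a library. A further alternative averaged the log2 ratios within clusters, weighted by nuclei, with 0.5 UMI added to each sum. Leaving out mixed nuclei was chosen after seeing the data. An item of the list of delta receptor partners is not reported here.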

Additional observations from a re-analysis of the deposited data

Results flagged for a closer look

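Grin3a in mothers over virgin females went opposite ways in a pair of clusters, and the difference was not tested. In cluster 4 the ratio was 2.91, from 37 UMIs in mothers and 6 in virgin females, and in cluster 2 it was 0.638, from 98 and 113 UMIs. Virgin males over virgin females went the same ways, at 2.45 [0.886, 7.79] in cluster 4 and 0.663 [0.460, 0.941] in cluster 2, and both comparisons share the virgin females' library. By its share of nuclei Grin3a in cluster 4 is not told apart from non-neuronal nuclei.

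Receptor transcripts were also found outside the neuronal nuclei, in nuclei that no comparison between clusters or between libraries used. The 11 non-neuronal nuclei held 9 UMIs of Grin2a, 5 of Grin3a and 8 of Grid1, each above the 3 UMIs that a count of 0 allows.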

How the results depend on the processing

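Counts of receptor genes past 1.5-fold stayed within 1.5 times the count given for every cluster under every alternative. Over the runs that left out 1 library each, the counts ran from 2 to 3 in cluster 0, 4 to 5 in cluster 1, 3 to 4 in cluster 2, 4 to 5 in cluster 3 and 5 to 5 in cluster 4. The difference in Grin2a share between clusters 4 and 3, 23.5 points, ran from 14.3 to 32.3 over those runs and from 22.7 to 27.0 under the other alternatives. Between libraries the count of 0 became 1 with no minimum in each of the 3 comparisons, through Grin3b with its 7 UMIs. For mothers over virgin females it also became 1 without the 5% of nuclei with most UMIs and with means over nuclei, through Grin2c. No called ratio changed sign. Of 576 values of single genes under an alternative, 549 moved by less than their spread or interval and 27 by more. Averaging the log2 ratios within clusters, weighted by nuclei, turned the signs of Grin2b, Grin2d and Grin3a in all 3 comparisons. It also turned that of Grin2c in virgin males over virgin females (-0.04, against 0.16), and none of these was past 1.5-fold. In cluster 1 Grin2c had 0 UMIs in both libraries, and in cluster 4 it had 1 in virgin males and 0 in virgin females. Its ratios in these clusters rest on the 0.5 UMI added to each sum. Clusters with few UMIs count by their nuclei in this average, so the part of the cluster mix in these turns was not tested. No paired analysis was possible because each group had 1 library and no test was made. Depth limits Grin3b in every cluster and Grin2c in clusters 1 and 4. It also limits Grin2d, with 13 UMIs in cluster 4 and 39 in cluster 1.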
